A study of Mus musculus with 12 samples.

Results

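The genes described here encode the molecular chaperones of the heat shock protein, DnaJ and TRiC families, read from the RNA of mouse CD8+ T cells. A gene was taken when it was protein-coding, when its symbol began with Hspa, Hspb, Hspd, Hspe or Hsph and a digit, with Hsp90, with Dnaja, Dnajb or Dnajc, or was one of Cct2 to Cct8 or Tcp1, and when its counts summed to 120 or more over the 12 libraries. Of 82 genes that fitted the symbols, 69 reached that sum, among 55536 annotated genes of the count matrix. The gene just inside the limit was Dnajc6, with 187 counts, and the gene just outside was Hspa12a, with 91. The 13 genes below it were Cct8l1, Dnajb8, Dnajc5b, Dnajc5g, Dnajc22, Hspa1l, Hspa12a, Hspa12b, Hspb1, Hspb2, Hspb3, Hspb7 and Hspb8. One member, Cct6a, carried a non-coding class in the annotation of the matrix and was kept because RefSeq lists it as protein-coding.

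The cells were OT-I T cells, which carry 1 transgenic T cell receptor for a peptide of ovalbumin and came from OT-I mice that also lacked a Rag gene. For the group called Ag, 5 libraries came from OT-I cells transferred into C57BL/6J mice that then received the peptide with a control antibody. For the group called Ag+Costim, 5 libraries came from the same transfer and peptide with agonist antibodies against the costimulatory receptors OX40 (CD134) and 41BB (CD137). For the group called Naive, 2 libraries came from CD8+ cells of OT-I mice that had neither a transfer nor a treatment. Tissue of Ag and Ag+Costim was collected on day 4 by the labels, while the study's methods place the sort some hours earlier. No day is given for Naive. Transferred cells were sorted from spleen and lymph nodes, and poly(A) RNA was amplified before sequencing, so the model is 1 receptor specificity, in transferred cells, at 1 time. The study's methods give a range of ages for all of its mice and none for a group. The study calls the libraries of this design individual biological replicates, although the labels do not tie a library to a mouse, and p-values measure the spread between these libraries. In bulk RNA, fewer cells of a type and less RNA per cell cannot be told apart.

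Chaperones bind proteins that are not yet folded, or that have come unfolded, and keep them from aggregating. HSP70 proteins grip and release short hydrophobic stretches in a cycle driven by ATP, J-domain proteins of the DnaJ classes bring them substrates and switch on their ATPase, and HSP110 proteins exchange the nucleotide. HSP90 acts later, on kinases, receptors and other clients that are nearly folded, while the ring-shaped chaperonins, TRiC in the cytosol and HSP60 with HSP10 in mitochondria, enclose a chain while it folds. Activated T cells grow and divide fast, and the making of new protein in the cytosol, the endoplasmic reticulum (ER) and the mitochondria calls on separate sets of these genes.

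Promoter windows of 250 bases before and 50 bases after the annotated start, from RefSeq on GRCm38.p6, were found for 57 of the 69 members and were searched on both strands for the letters that heat shock factors and the ER stress response are known to read. A heat shock element of 3 units (TTC, GAA and TTC, with 2 bases of any kind between neighbours) lay in a window of 4 of the 57 members, or 7.02%, against 179 of all 27025 genes with a window, or 0.662%. Those 4 genes were Hsph1, Hspd1, Hspe1 and Dnajb6. Members without a window were not searched, namely Hsp90aa1, Hsp90ab1, Hspa8, Hspa9, Hspa13, Cct4, Dnajc2, Dnajc5, Dnajc11, Dnajc12, Dnajc18 and Dnajc30. An ER stress element (CCAAT, then 9 bases of any kind, then CCACG) lay in windows of 3 members, Hsp90b1, Hspa5 and Dnajc3, or 5.26%, against 0.137% of all genes. Its first letters are also a CCAAT box, and the box alone was in 49.1% of the members and 41.1% of all genes. Any heat shock element of 2 units, TTCNNGAA or GAANNTTC, both of which lie within the element of 3 units, was in 26.3% of the members and 17% of all genes. All 7 genes with one of the longer elements were called higher in Ag+Costim against Ag by the test given below, where 26.6% of all genes tested and 53.6% of the members were. Among them, Hsph1, Hspd1, Hspe1, Hsp90b1 and Hspa5 belong to the ATP-driven families and the mitochondrial chaperonin. Of those families, 22 of 25 members, or 88%, were called higher. The calls of Hspe1 and Dnajb6 were each lost in 9 of the 12 fits that left out 1 library, and the direction of Dnajc3 turned after a correction for transcript length, so 4 of the 7 calls were free of these limits. A match describes letters in a window, and whether a factor was bound there was not measured. The windows below show the heat shock element of 3 units in Hsph1 and Hspd1 and the ER stress element in each of the 3 genes that held it, and their capitals mark the match on either strand.
Hsph1 (chr5:149636266-149636565, minus strand, match 15 bases after the start): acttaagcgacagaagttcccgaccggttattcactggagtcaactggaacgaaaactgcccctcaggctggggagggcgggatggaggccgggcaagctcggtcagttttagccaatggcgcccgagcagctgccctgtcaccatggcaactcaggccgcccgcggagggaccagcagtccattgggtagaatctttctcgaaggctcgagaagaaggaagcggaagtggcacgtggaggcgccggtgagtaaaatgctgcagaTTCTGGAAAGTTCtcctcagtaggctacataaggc
Hspd1 (chr1:55087883-55088182, minus strand, overlapping matches 144 and 139 bases before the start): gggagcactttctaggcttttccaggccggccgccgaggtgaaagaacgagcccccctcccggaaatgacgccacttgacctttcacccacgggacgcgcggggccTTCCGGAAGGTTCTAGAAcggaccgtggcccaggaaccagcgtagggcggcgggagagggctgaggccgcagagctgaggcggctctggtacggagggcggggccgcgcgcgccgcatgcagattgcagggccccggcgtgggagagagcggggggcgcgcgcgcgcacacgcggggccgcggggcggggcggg
Hsp90b1 (chr10:86705395-86705694, minus strand, matches 212 and 107 bases before the start): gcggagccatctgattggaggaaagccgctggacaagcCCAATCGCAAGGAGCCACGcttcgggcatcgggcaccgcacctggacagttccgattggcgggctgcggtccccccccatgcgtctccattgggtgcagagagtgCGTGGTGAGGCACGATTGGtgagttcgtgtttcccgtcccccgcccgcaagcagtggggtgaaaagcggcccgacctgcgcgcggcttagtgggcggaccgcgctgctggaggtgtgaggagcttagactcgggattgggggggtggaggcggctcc
Hspa5 (chr2:34771840-34772139, plus strand, match 65 bases before the start): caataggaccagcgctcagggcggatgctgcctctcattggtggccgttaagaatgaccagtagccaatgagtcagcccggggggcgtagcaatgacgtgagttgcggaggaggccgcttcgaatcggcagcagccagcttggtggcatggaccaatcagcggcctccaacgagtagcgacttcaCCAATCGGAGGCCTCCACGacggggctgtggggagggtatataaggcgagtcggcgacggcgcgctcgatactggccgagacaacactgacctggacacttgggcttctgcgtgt
Dnajc3 (chr14:118937682-118937981, plus strand, match 105 bases before the start): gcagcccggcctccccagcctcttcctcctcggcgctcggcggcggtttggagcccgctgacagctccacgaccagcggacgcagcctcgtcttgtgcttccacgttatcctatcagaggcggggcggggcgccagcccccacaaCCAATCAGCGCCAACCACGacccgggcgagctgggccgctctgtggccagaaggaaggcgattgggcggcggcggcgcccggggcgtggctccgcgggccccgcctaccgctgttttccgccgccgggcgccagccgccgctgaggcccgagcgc
The Hspd1 window shown shares 285 of its 300 bases with that of its neighbour Hspe1, which is read from the other strand, so that 1 stretch of sequence accounts for the matches of both genes. Hspd1 has another annotated start further upstream, and the window of that start (chr1:55088194-55088493) held no match. That upstream start is the first base of the gene as given below, so the matches lie inside the gene by those coordinates.

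Total counts per library ran from 24006053 to 45980125 in Ag, from 40028682 to 49294934 in Ag+Costim and from 42342577 to 43491402 in Naive. Gene-wise Spearman correlations between libraries of a group lay between 0.966 and 0.984. Values for single genes below are in CPM, counts divided by a library size that was scaled by the trimmed mean of M-values, and the test was edgeR's quasi-likelihood test on counts over all 18817 genes that passed a filter on low counts, with Benjamini-Hochberg adjustment and calls at an adjusted p below 0.05. All 69 members passed the filter. Library 4 of Ag+Costim stood at the low end of its group for the chaperones, with the lowest value in 24 of 30 core members, and library 2 stood at the high end, with the highest value in 21. The sorted cells carried the transcripts of CD8+ T cells, and Cd4 was at 2.44 CPM or less. Marker sets moved with the groups, those of T cells among them. Cd8a was at 776 to 861 CPM in Naive, 935 to 1302 in Ag and 504 to 609 in Ag+Costim, and 6 T cell markers summed to 6369 to 9323 CPM in Ag and 3886 to 5282 in Ag+Costim, with 5 of 6 called lower. The summed level of 4 B cell markers was 108 to 154 CPM in Ag and 22.2 to 57.1 in Ag+Costim, with 3 of 4 called lower, and that of 5 erythroid markers was 625 to 6373 CPM in Ag and 14.5 to 222 in Ag+Costim, with 5 of 5 called lower. A set of 5 myeloid markers summed to 58.6 to 165 CPM in Ag and 82.0 to 142 in Ag+Costim, with 2 called higher, and the NK cell markers Ncr1 and Klrb1c summed to 6.45 to 14.5 CPM in Ag and 1.22 to 3.30 in Ag+Costim, with 1 of 2 called lower. The 6 proliferation markers summed to 552 to 971 CPM in Ag and 2280 to 3093 in Ag+Costim, all called higher. Of 7 genes known to respond to tissue handling, 4 were called lower in Ag+Costim. Transcripts of the mitochondrial genome summed to 6124 to 17799 CPM in Ag, with library 4 the highest, and to 4825 to 6890 in Ag+Costim, with 4 of 9 called lower, and the part of any of these sets in the chaperone values was not tested.

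With costimulation a larger share of the transcriptome belonged to chaperones. Counts of the 69 members made up 1.00% ± 0.0366 (SD, n = 2) of all gene counts in Naive, 1.09% ± 0.0358 (n = 5) in Ag and 1.79% ± 0.267 (n = 5) in Ag+Costim. The 5 Ag+Costim libraries, at 1.40% to 2.1%, all lay above the 5 Ag libraries, at 1.05% to 1.14%. Nearly all of the gain was in the ATP-driven families and the mitochondrial chaperonin, whose summed share went from 0.713% ± 0.0363 in Ag to 1.43% ± 0.260 in Ag+Costim, while that of the 41 DnaJ genes was 0.377% ± 0.0199 and 0.363% ± 0.00763. Of the 69 members, 37 were called higher in Ag+Costim than in Ag, or 53.6%, where 26.6% of all genes tested were called higher, and 18 were called lower, or 26.1%, where 26.5% of all genes were, so that 55 were called in either direction against 53.1% of all genes. The median log2 difference was 0.38 over the members and -0.05 over all genes tested. Called or not, 34 members had all 5 libraries of Ag+Costim above the 5 of Ag, and 13 had all of them below, where the shares over all genes were 21.3% and 18.5%. Under upper-quartile scaling the calls were 30 higher and 20 lower, the median over all genes moved to -0.24, and 39.0% of the calls over all genes were higher, where the reported scaling gave 50.1%. Of the 55 calls, 12 changed under at least 1 setting other than a left-out library, namely those of Cct2, Hspa14, Hspe1, Dnaja2, Dnajb1, Dnajb6, Dnajc3, Dnajc8, Dnajc9, Dnajc15, Dnajc17 and Dnajc27. The 14 uncalled members were Cct6b, Hspa2, Hspa4l, Dnaja1, Dnajb3, Dnajb4, Dnajb7, Dnajb12, Dnajc7, Dnajc10, Dnajc12, Dnajc14, Dnajc16 and Dnajc18, with log2 differences from -0.18 for Dnajc18 to 0.74 for Hspa2.

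**Figure D1:**
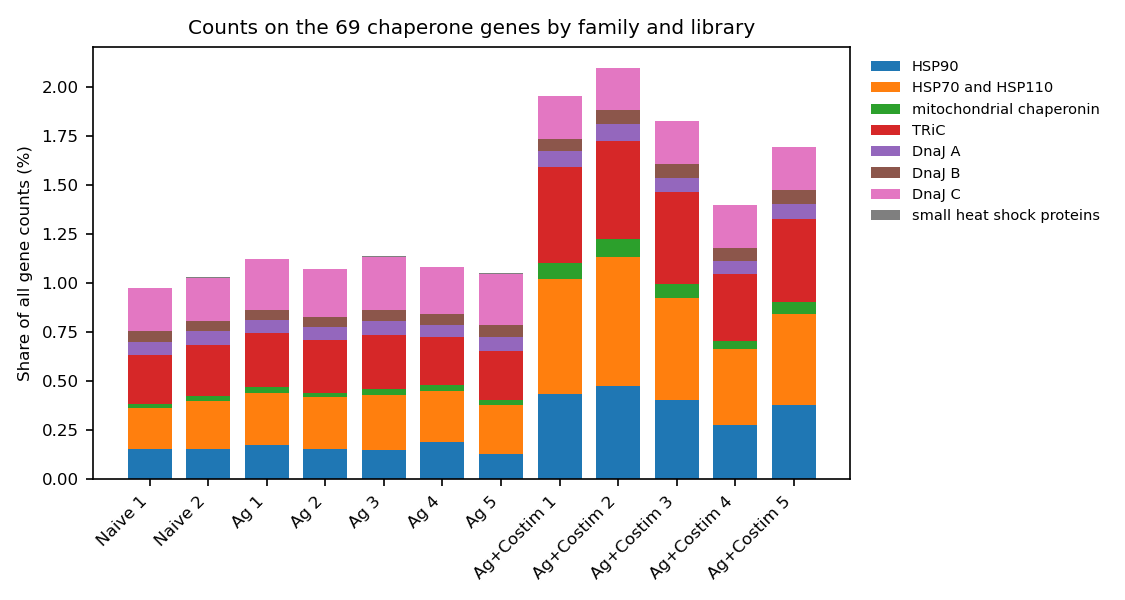
Share of all gene counts (%) taken by the 69 members in each library, as stacked bars from 0 with a colour for each family, for 2 Naive, 5 Ag and 5 Ag+Costim libraries. The HSP90, HSP70 and HSP110, TRiC and mitochondrial chaperonin parts were thicker in all 5 Ag+Costim libraries than in any Ag library, and library 4 had the lowest bar of the costimulated ones, at 1.40%.

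All 3 HSP90 genes rose. Hsp90aa1 (chr12:110690605-110702728, minus strand), the inducible cytosolic form, was at 168 and 183 CPM in Naive, 237, 192, 227, 292 and 174 in Ag, and 832, 873, 747, 472 and 733 in Ag+Costim. Each of the 5 costimulated libraries lay above every other library, and the level was 3.26-fold that of Ag (log2 1.71 ± 0.17, SE, adjusted p = 2.02e-06 by edgeR). Hsp90ab1 (chr17:45567775-45573271, minus strand), the constitutive form, stood at 832 and 804 CPM in Naive, 1132, 980.0, 989, 1059.9 and 797 in Ag, and 2199, 2385, 2094, 1304 and 1824 in Ag+Costim. The Naive libraries fell inside the Ag range, while Ag and Ag+Costim did not overlap and the rise was 1.98-fold (log2 0.98 ± 0.15, adjusted p = 6.87e-05). Hsp90b1 (chr10:86690209-86705509, minus strand), which encodes GRP94 of the ER, was at 359.7 and 373 CPM in Naive, 394, 349.7, 372, 428 and 336 in Ag, and 1437, 1698, 1402, 1112 and 1371 in Ag+Costim. With Naive and Ag on one level and costimulated libraries far above it, this gene had the largest rise among well-measured members, 3.73-fold (log2 1.9 ± 0.11, adjusted p = 2.74e-08). It overlaps 2 small annotated genes on its own strand, Gm15344 and Gm25745, and counts without strand cannot be split between overlapping genes.

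The HSP70 and HSP110 family had 9 of 11 members called higher and none lower, with a median log2 difference of 1.07. Hspa8 (chr9:40800984-40810087, plus strand), the constitutive HSC70, was at 869 and 1117 CPM in Naive, 1266, 1158, 1583, 1313 and 1223 in Ag, and 2859, 3206, 2522, 1884 and 2276 in Ag+Costim. Even the lowest costimulated library was above the highest Ag library, and the rise was 1.95-fold (log2 0.96 ± 0.14, adjusted p = 6.14e-05). Hspa5 (chr2:34771970-34777547, plus strand), which encodes BiP, the HSP70 of the ER, was at 493 and 492 CPM in Naive, 829.5, 888, 792, 689 and 803 in Ag, and 1809, 2143, 1711, 1237 and 1394 in Ag+Costim. Its libraries formed 3 separate steps, and the step from Ag to Ag+Costim was 2.07-fold (log2 1.05 ± 0.13, adjusted p = 1.65e-05). Hspa9, which encodes the mitochondrial HSP70 mortalin, was at 199 and 205 CPM in Naive, 152, 157, 146, 120.4 and 129 in Ag, and 443, 498, 419, 253 and 349.5 in Ag+Costim. Here Ag lay below Naive and Ag+Costim above both, and the rise over Ag was 2.79-fold (log2 1.48 ± 0.15, adjusted p = 3.07e-06).

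Among the nucleotide exchange factors, Hsph1 (chr5:149614287-149636376, minus strand), the heat-inducible HSP110, was at 70.1 and 110.2 CPM in Naive, 64.0, 64.7, 89.0, 73.5 and 78.4 in Ag, and 274, 371, 260.1, 193 and 252 in Ag+Costim. Naive and Ag overlapped and costimulated libraries lay above both, with a rise of 3.65-fold over Ag (log2 1.87 ± 0.17, adjusted p = 1.09e-06). Hspa4 (chr11:53259814-53300457, minus strand), its constitutive relative, was at 129 and 132 CPM in Naive, 135, 151, 140.1, 115 and 151 in Ag, and 318, 355, 314, 205 and 260.1 in Ag+Costim. It rose 2.1-fold with no overlap (log2 1.07 ± 0.13, adjusted p = 1.46e-05). Hspa4l (chr3:40744495-40796103, plus strand) did otherwise, at 13 and 14.5 CPM in Naive, 35.1, 36.0, 34.4, 25.1 and 37.7 in Ag, and 34.4, 41.7, 30.7, 32.3 and 38.0 in Ag+Costim. Its treated groups overlapped, with a log2 difference of 0.07 ± 0.12 that was not called (adjusted p = 0.641).

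The inducible HSP70 pair was scarce. Hspa1a (chr17:34969190-34972156) was at 0.185 and 0.357 CPM in Naive, 1.54, 0.425, 0.443, 0.396 and 0.770 in Ag, and 1.73, 2.35, 3.90, 1.95 and 3.48 in Ag+Costim. Hspa1b (chr17:34956436-34959238), which lies beside it on the minus strand, was at 0.432 and 0.777 CPM in Naive, 2.26, 0.448, 1.49, 0.514 and 0.962 in Ag, and 4.91, 3.41, 6.30, 4.03 and 6.36 in Ag+Costim. Costimulated libraries lay above all others for both genes, with log2 differences from Ag of 1.89 ± 0.42 and 2.12 ± 0.41 (adjusted p = 0.00187 and 0.00062). The pair is nearly identical in sequence, so how reads were divided between its genes is uncertain. Of the rest of the family, Hspa13 (chr16:75745431-75767104), an HSP70-like protein of the ER, was at 5.04 and 5.12 CPM in Naive, 10.5, 10.9, 7.27, 6.13 and 6.90 in Ag, and 16.5, 26.6, 21.0, 16.6 and 20.6 in Ag+Costim, and rose 2.42-fold (log2 1.28 ± 0.19). Hspa14, which works at the ribosome, was called higher at 208 ± 17.6 CPM against 159.6 ± 15.2 (1.31-fold), and Hspa2, best known from testis, was not called at 8.72 ± 1.89 against 5.22 ± 1.2 CPM (adjusted p = 0.0567).

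Both genes of the mitochondrial chaperonin were called higher. Hspd1 (chr1:55077835-55088243, minus strand), which encodes HSP60, was at 136 and 151 CPM in Naive, 181, 176, 194, 164 and 164 in Ag, and 651, 739, 582, 346 and 491 in Ag+Costim. The rise was 3.20-fold with no overlap (log2 1.68 ± 0.16, adjusted p = 1.66e-06). Hspe1 (chr1:55088132-55091307, plus strand), which encodes its lid HSP10, was at 60.5 and 69 CPM in Naive, 112, 72.8, 124, 114 and 72.2 in Ag, and 194, 177, 146, 81.9 and 129.7 in Ag+Costim. Here library 4 of Ag+Costim lay among the Ag libraries, the rise was 1.47-fold (log2 0.56 ± 0.22, adjusted p = 0.0434), and the call was lost in 9 of the 12 fits that left out 1 library each. The genes overlap head to head, and a processed copy of Hspd1, Hspd1-ps3, held 23648 counts of its own over all libraries. On the deposited FPKM scale, which divides by transcript length and depth and so allows levels of different genes to be compared, the ratio of Hspd1 to Hspe1 was 0.697 ± 0.186 in Ag and 1.41 ± 0.138 in Ag+Costim, with ranges of 0.522 to 0.944 and 1.19 to 1.54 that did not overlap. In Naive the ratio was 0.797 ± 0.00199 (n = 2), inside the range of Ag.

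**Figure D2:**
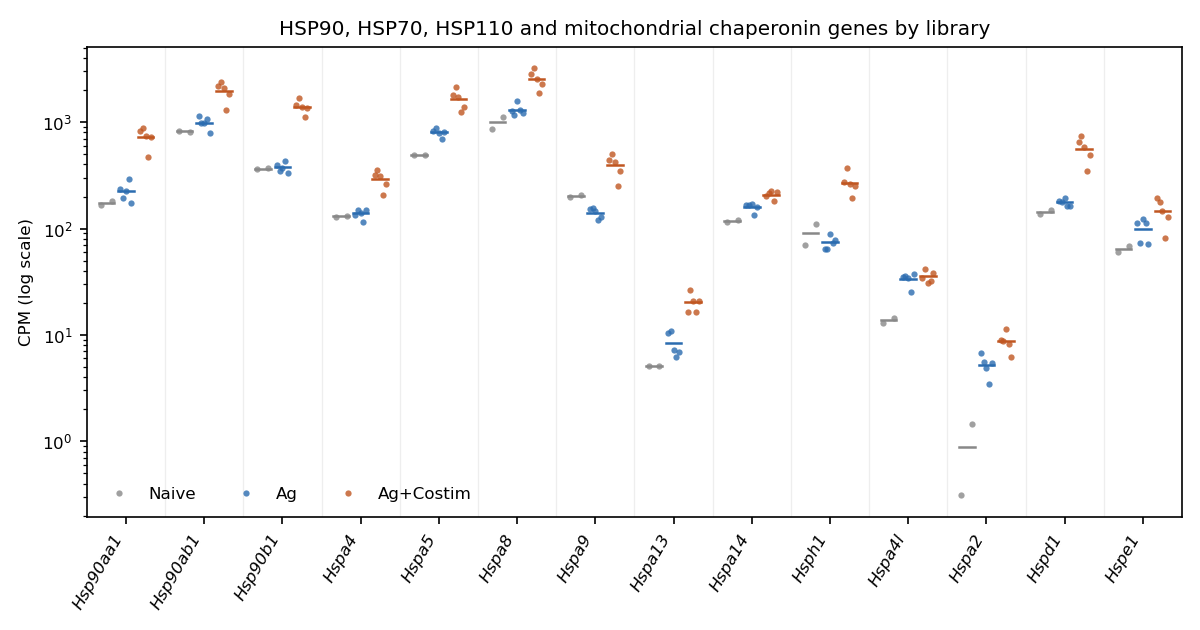
Level in each library (points, CPM on a log axis) of HSP90, HSP70, HSP110 and mitochondrial chaperonin genes in Naive, Ag and Ag+Costim, with bars at the group means. Library 4 of Ag+Costim, the lowest of its group for most genes, lay above all Ag libraries for each of them except Hspe1 and Hspa4l.

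The cytosolic chaperonin TRiC, a ring of 8 kinds of subunit that folds actin, tubulin and other proteins, moved as a set. All 8 of its standard subunits were called higher in Ag+Costim, by 0.35 to 1.10 on the log2 scale, and only Cct6b, a testis form of 1 subunit at 1.27 CPM or less in every library, was not (0.34 ± 0.39, adjusted p = 0.484). Tcp1 (chr17:12915701-12925067), the alpha subunit, was at 223 and 225 CPM in Naive, 281, 273, 301, 268 and 250.2 in Ag, and 634, 687, 616, 433 and 549.6 in Ag+Costim. Cct6a (chr5:129786998-129846371), the zeta subunit, was at 286 and 298 CPM in Naive, 293, 266, 292, 250.1 and 252 in Ag, and 660.3, 714, 609, 398 and 523 in Ag+Costim. These were the steepest, at 2.12-fold and 2.15-fold over Ag, without overlap (adjusted p = 2.58e-06 and 1.18e-05). Cct7 (chr6:85451514-85468475), the eta subunit, was at 354 and 359 CPM in Naive, 440.1, 413, 442, 396 and 383 in Ag, and 821, 851, 835, 607 and 751 in Ag+Costim, a rise of 1.86-fold.

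Cct4 (chr11:22990519-23003780), the delta subunit, was at 171 and 192 CPM in Naive, 218, 214, 238, 202 and 215 in Ag, and 400.5, 436, 382, 286 and 341 in Ag+Costim, or 1.70-fold higher than in Ag. Cct5 (chr15:31590800-31601804), the epsilon subunit, was at 384 and 394 CPM in Naive, 508, 489.9, 566, 396 and 493 in Ag, and 832, 867, 869.8, 658 and 804 in Ag+Costim, or 1.64-fold higher. For both, library 4 was the lowest of the costimulated ones and still above every Ag library. Cct8 (chr16:87483326-87495873), the theta subunit, was at 347 and 355 CPM in Naive, 473, 442, 501, 377 and 442 in Ag, and 762, 804, 786, 561 and 713 in Ag+Costim, or 1.62-fold higher. Cct3 (chr3:88297116-88321767), the gamma subunit, was at 309 and 327 CPM in Naive, 332, 326, 343, 269 and 301 in Ag, and 554, 585, 537, 381 and 458 in Ag+Costim, or 1.60-fold higher. Neither overlapped between the treated groups, whereas for Cct3 the Naive libraries fell inside the Ag range. Cct2 (chr10:117051001-117063814), the beta subunit, was at 160.0 and 159.5 CPM in Naive, 238, 230.2, 257, 208 and 224 in Ag, and 311, 306, 311, 251 and 297 in Ag+Costim. It had the smallest rise of the ring, 1.28-fold (log2 0.35 ± 0.08, adjusted p = 0.00266), and library 4 of Ag+Costim fell within the range of Ag.

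**Figure D3:**
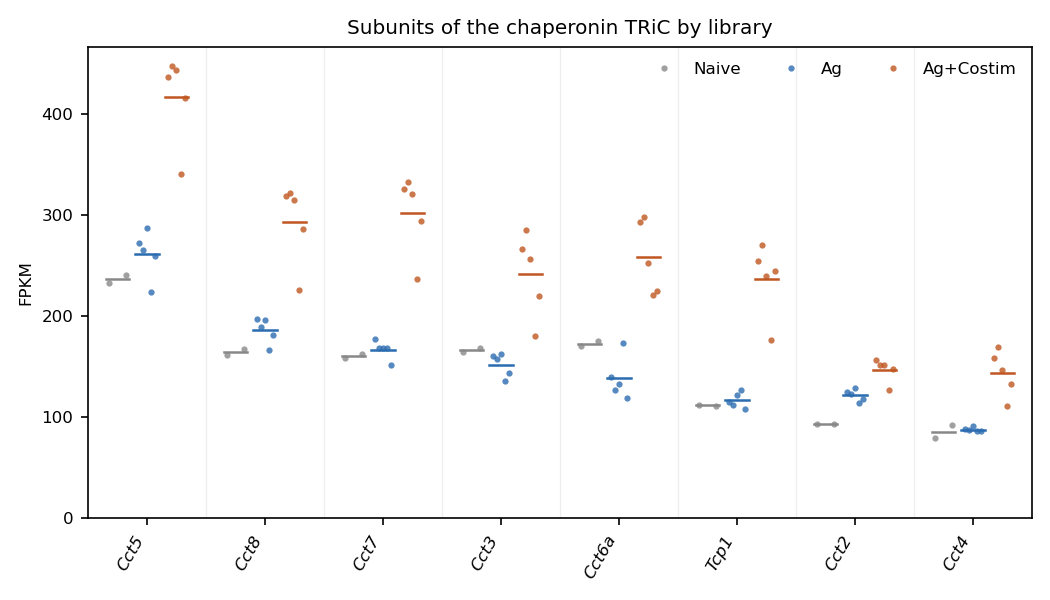
Level per length of each TRiC subunit (FPKM) in every library of Naive, Ag and Ag+Costim, with bars at the group means. Cct5 was the highest subunit in all 12 libraries, and the ratio of the highest to the lowest of the 8 standard subunits stayed between 2.60 and 3.16.

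Compared per length, the top of the ring was the same in each group, while the order of the subunits between top and bottom differed. Cct5 was the highest standard subunit in all 12 libraries, at 236.6 ± 5.33 FPKM in Naive, 261.6 ± 23.2 in Ag and 416.7 ± 44.5 in Ag+Costim. The lowest was Cct4 in 10 libraries and Cct2 in the other two, and the ratio of highest to lowest was 2.77 ± 0.217 (n = 2) in Naive, 2.98 ± 0.218 (n = 5) in Ag and 3.00 ± 0.128 (n = 5) in Ag+Costim. Over all members, Hspa8 had the highest mean in each group, at 460.4, 538.9 and 1068 FPKM in Naive, Ag and Ag+Costim, and Hsp90ab1 came second, at 361, 389.6 and 745. In Ag the next were Dnajc15 at 347 and Hspa5 at 292, and in Ag+Costim they were Hspa5 at 582 and Hsp90b1 at 474. Neighbours in this order overlapped between libraries from Hsp90ab1 down to Dnajc2, the 26th, in Ag and from Hspa8 down to Cct5 in Ag+Costim. Within each Ag+Costim library, however, the order was the same, namely Hspa8, Hsp90ab1, Hspa5, Hsp90b1 and Cct5. In Ag the order was not the same in every library, as Dnajc15 lay above Hsp90ab1 in libraries 3 and 5 only. Within the HSP90 family, the ratio of Hsp90aa1 to Hsp90ab1 was 0.171 ± 0.0206 (n = 2) in Naive, 0.176 ± 0.0228 in Ag and 0.291 ± 0.0118 in Ag+Costim. That of Hsp90b1 to Hspa5, both of the ER, was 0.699 ± 0.0055 in Naive, 0.454 ± 0.0847 in Ag and 0.826 ± 0.0862 in Ag+Costim. Neither ratio overlapped between the treated groups, so that from Ag to Ag+Costim the ATP-driven chaperones did not all rise in proportion. For Hsp90b1 to Hspa5, both Naive libraries lay between the ranges of the treated groups.

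The J-domain genes went both ways, as did all genes tested. For Ag+Costim against Ag, 14 of the 41, or 34.1%, passed the test as higher, where 26.6% of all genes did. Another 16, or 39%, passed as lower, where 26.5% did, and the median log2 difference was 0.11. Class A, the general partners of HSP70, had 2 of 4 higher and 1 lower, and class B had 5 of 12 higher and 3 lower. The 25% lower in class A and in class B was near the share of all genes. Class C, the varied and specialised ones, had 7 of 25 higher, or 28%, also near that of all genes, and 12 lower, or 48%. Its median was -0.18. Dnaja1 (chr4:40722150-40737149), an abundant cytosolic partner of HSP70, was at 282 and 330.5 CPM in Naive, 394, 358, 466, 294 and 417 in Ag, and 452, 492, 397, 349 and 398 in Ag+Costim, and its treated groups overlapped (log2 0.11 ± 0.13, adjusted p = 0.472). Dnaja2 (chr8:85537633-85555344), its relative, was at 197 and 185 CPM in Naive, 192, 213, 214, 171 and 218 in Ag, and 260.4, 271, 266, 222 and 255 in Ag+Costim, a rise of 1.27-fold without overlap (adjusted p = 0.00453). The mitochondrial Dnaja3 (chr16:4639989-4707695) was at 86.8 and 85.8 CPM in Naive, 61.6, 64.7, 65.0, 61.7 and 71.5 in Ag, and 103, 119, 104, 83.6 and 95.4 in Ag+Costim. As with Hspa9, Ag was the lowest of the groups, and the rise over it was 1.56-fold (log2 0.64 ± 0.09, adjusted p = 5.33e-05). Dnaja4 fell, at 19.2 ± 3.01 CPM against 29.3 ± 7.48 in Ag (1.52-fold lower).

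In class B, Dnajb1 (chr8:83608193-83612653), the heat-inducible HSP40, was at 114 and 128 CPM in Naive, 99.6, 104, 117, 97.0 and 142 in Ag, and 133, 146, 174, 147 and 186 in Ag+Costim. Library 5 of Ag overlapped the costimulated range, and the rise was 1.40-fold (log2 0.49 ± 0.12, adjusted p = 0.00415). Dnajb6 (chr5:29735688-29818134), which holds back aggregation, was at 121 and 111 CPM in Naive, 153, 152, 183, 140.5 and 182 in Ag, and 179, 184, 199, 188 and 191 in Ag+Costim. Its treated groups overlapped too, and the call (1.16-fold, adjusted p = 0.0487) was lost in 9 of the 12 fits that left out 1 library each. Dnajb5 rose 1.87-fold from 4.43 ± 0.651 to 8.31 ± 1.78 CPM. Dnajb2 (a call lost in 3 of the 12 fits without 1 library), Dnajb13 and Dnajb14 fell, the last of these at 1.03 ± 0.292 CPM against 4.66 ± 1.89 in Ag. Dnajb13 (chr7:100501716-100514960), a protein of motile cilia and sperm tails, was at 9.10 and 9.70 CPM in Naive, 9.96, 11.2, 11.4, 10.4 and 11.9 in Ag, and 4.06, 4.37, 6.00, 8.68 and 5.24 in Ag+Costim, 1.93-fold lower than Ag (adjusted p = 0.000764). It overlaps Ucp2 on the other strand, and the library kit does not mark strand.

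The J-domain partners of BiP in the ER did not all follow it. Dnajb11 (chr16:22857845-22879634), or ERdj3, a soluble partner that binds clients, was at 142 and 129 CPM in Naive, 223, 232, 246, 226 and 232 in Ag, and 307, 342, 335, 276 and 309.9 in Ag+Costim. Like Hspa5 it climbed in separate steps, and the rise over Ag was 1.35-fold (log2 0.44 ± 0.08, adjusted p = 0.000251). Dnajc3 (chr14:118937976-118981697), or p58IPK, was at 148 and 153 CPM in Naive, 170.1, 165, 180.0, 166 and 171 in Ag, and 217, 241, 201, 183 and 185 in Ag+Costim, 1.21-fold higher than Ag (adjusted p = 0.0139), a direction that turned to -0.23 on the log2 scale once counts were corrected for transcript length. Dnajb9 (chr12:44205559-44210326), or ERdj4, a target of the unfolded protein response, was at 14.6 and 17.6 CPM in Naive, 5.02, 5.68, 5.57, 4.59 and 4.04 in Ag, and 8.77, 8.58, 8.21, 9.87 and 7.24 in Ag+Costim. Here the order differed, with Naive the highest, Ag the lowest and Ag+Costim between them, 1.71-fold over Ag (log2 0.78 ± 0.14, adjusted p = 0.000334). Dnajc10, or ERdj5, a reductase, overlapped between all groups, at 69.8 ± 6.28 CPM in Ag+Costim and 64.7 ± 12 in Ag (adjusted p = 0.482), and that correction turned its direction too. Dnajc1 (chr2:18195654-18392830), or ERdj1, a membrane protein that meets the ribosome, went the other way, at 88.2 and 97.2 CPM in Naive, 129, 134, 115, 146 and 129 in Ag, and 70.9, 66.5, 68.8, 72.4 and 74.3 in Ag+Costim, 1.85-fold lower than Ag (log2 -0.89 ± 0.08, adjusted p = 5.96e-07). Of 14 members assigned to the ER, 6 were called higher and 3 lower, or 42.9% and 21.4%, where 26.6% and 26.5% of all genes were.

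Mitochondrial members were divided in the same way. Against the rise of Hspa9, Hspd1, Hspe1 and Dnaja3 stood the fall of several J-domain genes of the inner membrane. Dnajc15 (chr14:77820681-77875125), or MCJ, a brake on respiratory complex I, was at 290.4 and 255 CPM in Naive, 589.8, 466, 756, 539 and 631 in Ag, and 363, 328, 399, 449 and 449 in Ag+Costim. The Ag libraries all lay above the others, and the fall with costimulation was 1.5-fold (log2 -0.58 ± 0.13, adjusted p = 0.00177). Dnajc19, of the import motor, was lower at 59.1 ± 4.45 CPM against 84.0 ± 9.02 in Ag (1.42-fold), and a processed copy of it, Dnajc19-ps, held 5653 counts of its own. Dnajc30 (chr5:135064202-135065862), a mitochondrial protein of the respiratory chain, was at 28.9 and 32.1 CPM in Naive, 38.1, 30.7, 34.7, 24.0 and 33.5 in Ag, and 17.2, 15.5, 10.7, 19.1 and 16.5 in Ag+Costim, 2.04-fold lower than Ag (adjusted p = 8.82e-05). Dnajc28 fell as well, from 1.21 ± 0.344 to 0.419 ± 0.308 CPM, and Dnajc11, of the cristae, rose 1.85-fold from 45.9 ± 5.63 to 84.9 ± 11.2 CPM. Of 9 mitochondrial members, 5 were called higher and 4 lower, or 55.6% and 44.4%, where 26.6% and 26.5% of all genes were.

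Members tied to the ribosome, the spliceosome and chromatin also went both ways. Dnajc2 (chr5:21757267-21785251), a ribosome-associated J-domain protein, was at 82.1 and 80.6 CPM in Naive, 115, 117, 126, 116 and 115 in Ag, and 168, 178, 168, 134 and 152 in Ag+Costim, a climb in steps with 1.36-fold between the treated groups (adjusted p = 0.000424). Dnajc21 (chr15:10446756-10470516), of ribosome biogenesis, was at 9.55 and 10.1 CPM in Naive, 17.9, 25.1, 15.7, 12.4 and 22.2 in Ag, and 12.6, 9.93, 7.91, 5.24 and 7.35 in Ag+Costim. It fell 2.17-fold (log2 -1.12 ± 0.23, adjusted p = 0.00117), with 1 library of each treated group overlapping. Dnajc9 (chr14:20384638-20388910), a chaperone of histones, was at 220.0 and 199 CPM in Naive, 477, 429.6, 529, 392 and 489 in Ag, and 392, 360.2, 399.7, 403 and 399 in Ag+Costim, 1.19-fold lower than Ag with overlap (adjusted p = 0.0283), a call lost in 5 of the 12 fits without 1 library. Dnajc8 and Dnajc17, both associated with the spliceosome, fell 1.32-fold and 1.46-fold, to 238 ± 3.12 and 12.9 ± 1.75 CPM.

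Dnajc7 (chr11:100582818-100620168), which links HSP70 with HSP90, was at 279 and 305 CPM in Naive, 193, 211, 209, 163 and 241 in Ag, and 177, 179.7, 193, 209 and 191 in Ag+Costim. Its treated groups overlapped, at a log2 difference of -0.10 ± 0.10 (adjusted p = 0.427). Dnajc5 (chr2:181520485-181555133), the cysteine string protein of vesicle release, was at 132 and 145 CPM in Naive, 58.6, 63.7, 62.3, 80.8 and 66.7 in Ag, and 101, 121, 112, 121 and 112 in Ag+Costim, 1.71-fold over Ag (adjusted p = 1.19e-05). Dnajc13, of endosomes, rose 1.9-fold, from 20.2 ± 2.07 to 38.4 ± 8.03 CPM. Dnajc27 (chr12:4082583-4110606) was at 15.4 and 13 CPM in Naive, 8.03, 3.65, 4.94, 6.68 and 5.89 in Ag, and 9.65, 12.3, 9.39, 10.5 and 8.67 in Ag+Costim, 1.73-fold over Ag. For these 3 risers Ag was the lowest group, without overlap with Ag+Costim. Dnajc4 (chr19:6987911-6992572) had the largest fall of the well-measured members, 2.22-fold (log2 -1.15 ± 0.14, adjusted p = 1.51e-05), from 25.5, 25.3, 25.0, 19.7 and 19.7 CPM in Ag to 9.84, 7.38, 12.2, 11.4 and 11.1 in Ag+Costim, with 13.9 and 14.0 in Naive. Dnajc24 (chr2:105966709-106003549), of diphthamide synthesis, was at 17.7 and 14.7 CPM in Naive, 33.8, 24.6, 37.4, 23.1 and 29.3 in Ag, and 21.1, 19.3, 21.0, 17.1 and 20.4 in Ag+Costim, 1.5-fold lower than Ag. Dnajc6, the auxilin of clathrin uncoating, had 0, 0, 1, 2 and 2 counts in Ag, 14, 36, 23, 14 and 24 in Ag+Costim, and 46 and 25 in Naive, and was called higher in Ag+Costim (adjusted p = 0.000651), with no fold given because each Ag library had fewer than 3 counts.

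**Figure D4:**
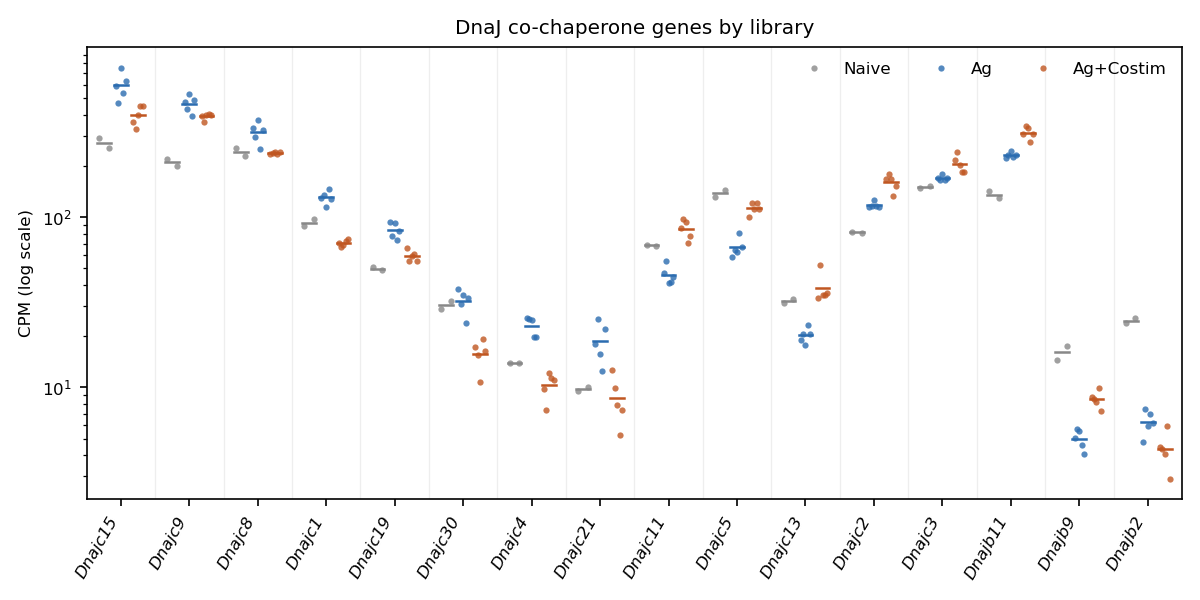
Level in each library (points, CPM on a log axis) of J-domain genes in Naive, Ag and Ag+Costim, with bars at the group means. Genes such as Dnajb11 and Dnajc2 climbed in steps, Dnajc15 and Dnajc1 were highest in Ag, and Dnajb9 and Dnajc5 were lowest in Ag.

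Small heat shock proteins, which hold unfolded chains without ATP, had 3 members with low levels, of which Hspb6 was called higher at 6.11 ± 1.07 CPM against 3.43 ± 0.677 in Ag. Hspb11, which despite its symbol is a protein of intraflagellar transport, fell 2.12-fold to 4.34 ± 0.953 CPM, and Hspb9 fell to 0.209 ± 0.0873 from 0.833 ± 0.367 CPM. Hspb1 is known as a heat-inducible gene and was below the count limit. Of the 5 stress-inducible members (Hspa1a, Hspa1b, Hsph1, Hsp90aa1 and Dnajb1), all 5 were called higher, where 26.6% of all genes tested were. Their median log2 difference was 1.87. Of these, Hspa1a and Hspa1b were scarce, and the call of Dnajb1 was lost under upper-quartile scaling and after length correction.

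Antigen alone was compared with Naive over 5 and 2 libraries. In Ag, 19 members were called higher, where 24.2% of all genes were, and 16 were called lower, where 22.5% were, with 46.7% of all genes called in either direction, and the median log2 difference was 0.22 over members and 0.02 over all genes tested. None of the 3 HSP90 genes and neither mitochondrial chaperonin gene was called, and of TRiC only Cct2 was, 1.45-fold higher (adjusted p = 0.00156). Cct5 and Cct8 were also called higher under upper-quartile scaling, with the replicate block, and without library 4 of Ag or of Ag+Costim, Tcp1 with the block, and Tcp1 and Hspe1 without library 4 of Ag+Costim. The HSP70 and HSP110 family had 5 higher, among them Hspa4l, 2.44-fold (adjusted p = 5.17e-05), Hspa5, 1.63-fold, and Hspa2, at 5.22 ± 1.2 CPM against 0.309 and 1.45 in Naive, and 1 lower, Hspa9. Among J-domain genes with a mean log2 CPM above 3, the larger rises were those of Dnajc9, 2.21-fold (adjusted p = 7.23e-06), Dnajc15, 2.19-fold, Dnajc21, 1.9-fold, and Dnajc24, 1.83-fold, and below that level Dnajc25 rose 2.83-fold. Dnajb2 (chr1:75236406-75245692), a ubiquitin-binding J-domain protein, had the largest fall among members with a mean log2 CPM above 3, from 24.0 and 25.4 CPM in Naive to 4.78, 7.45, 5.96, 6.96 and 6.16 in Ag (3.94-fold, adjusted p = 1.02e-05), and was at 4.48, 4.34, 4.05, 5.91 and 2.91 in Ag+Costim. Dnajb9, Dnajc27 and Dnajc5 fell 3.22-fold, 2.43-fold and 2.09-fold, and the scarcer Dnajc28 and Dnajb7 fell 4.46-fold and 4.11-fold. Dnajb4 (chr3:152178511-152210302) fell 1.75-fold, from 14.3 and 20.6 CPM in Naive to 11.8, 9.09, 10.4, 5.70 and 12.8 in Ag, and stood at 5.98, 6.65, 9.84, 12.1 and 9.89 in Ag+Costim. With 2 Naive libraries this comparison leaned on each of them. Without the first, 12 members were called higher and 11 lower, where 3362 and 3085 of 19972 genes tested were. Without the second, 12 and 9 members were, where 2906 and 2807 of 20007 genes were. Of the 35 calls, 15 were lost without 1 library or another, among them those of Hspa5, Hspa9, Dnajb4 and Dnajc21. On log2(FPKM + 1) the calls were 14 higher and 15 lower, and 37.2% of the calls over all genes were higher, where the counts gave 51.9%. Between Naive and Ag, libraries did not overlap for 30 members higher in Ag and 16 lower, where the shares over all genes were 27.2% and 29.2%.

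Ag+Costim against Naive had 34 members called higher, where 26.9% of all genes were, and 13 called lower, where 25.4% were (52.3% in either direction), with a median log2 difference of 0.45 over members and -0.02 over all genes. Of the 25 ATP-driven and mitochondrial chaperonin genes, 24 were called higher and none lower, and the exception was Cct6b. Hsp90aa1, 4.17-fold, Hspa13, 3.98-fold, Hspd1, 3.92-fold, Hsp90b1, 3.83-fold, and Hspa5, 3.37-fold, had the largest rises among well-measured members. Of the 41 J-domain genes, 9 were called higher and 12 lower, and the largest falls among those with a mean log2 CPM above 3 were of Dnajb2, 5.68-fold, Dnajb4, 1.96-fold, Dnajc30, 1.93-fold, Dnajb9, 1.88-fold, and Dnajb13, 1.66-fold, while the scarcer Dnajc28 and Dnajb14 fell 12.8-fold and 5.91-fold. Libraries did not overlap for 40 members higher and 18 lower, where the shares over all genes were 31.7% and 34.2%, and without the second Naive library the calls lower were 7. On log2(FPKM + 1) the calls were 29 higher and 17 lower, and 36.2% of the calls over all genes were higher, where the counts gave 51.5%. The comparisons share their libraries, so their values stand side by side and are not independent.

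**Figure D5:**
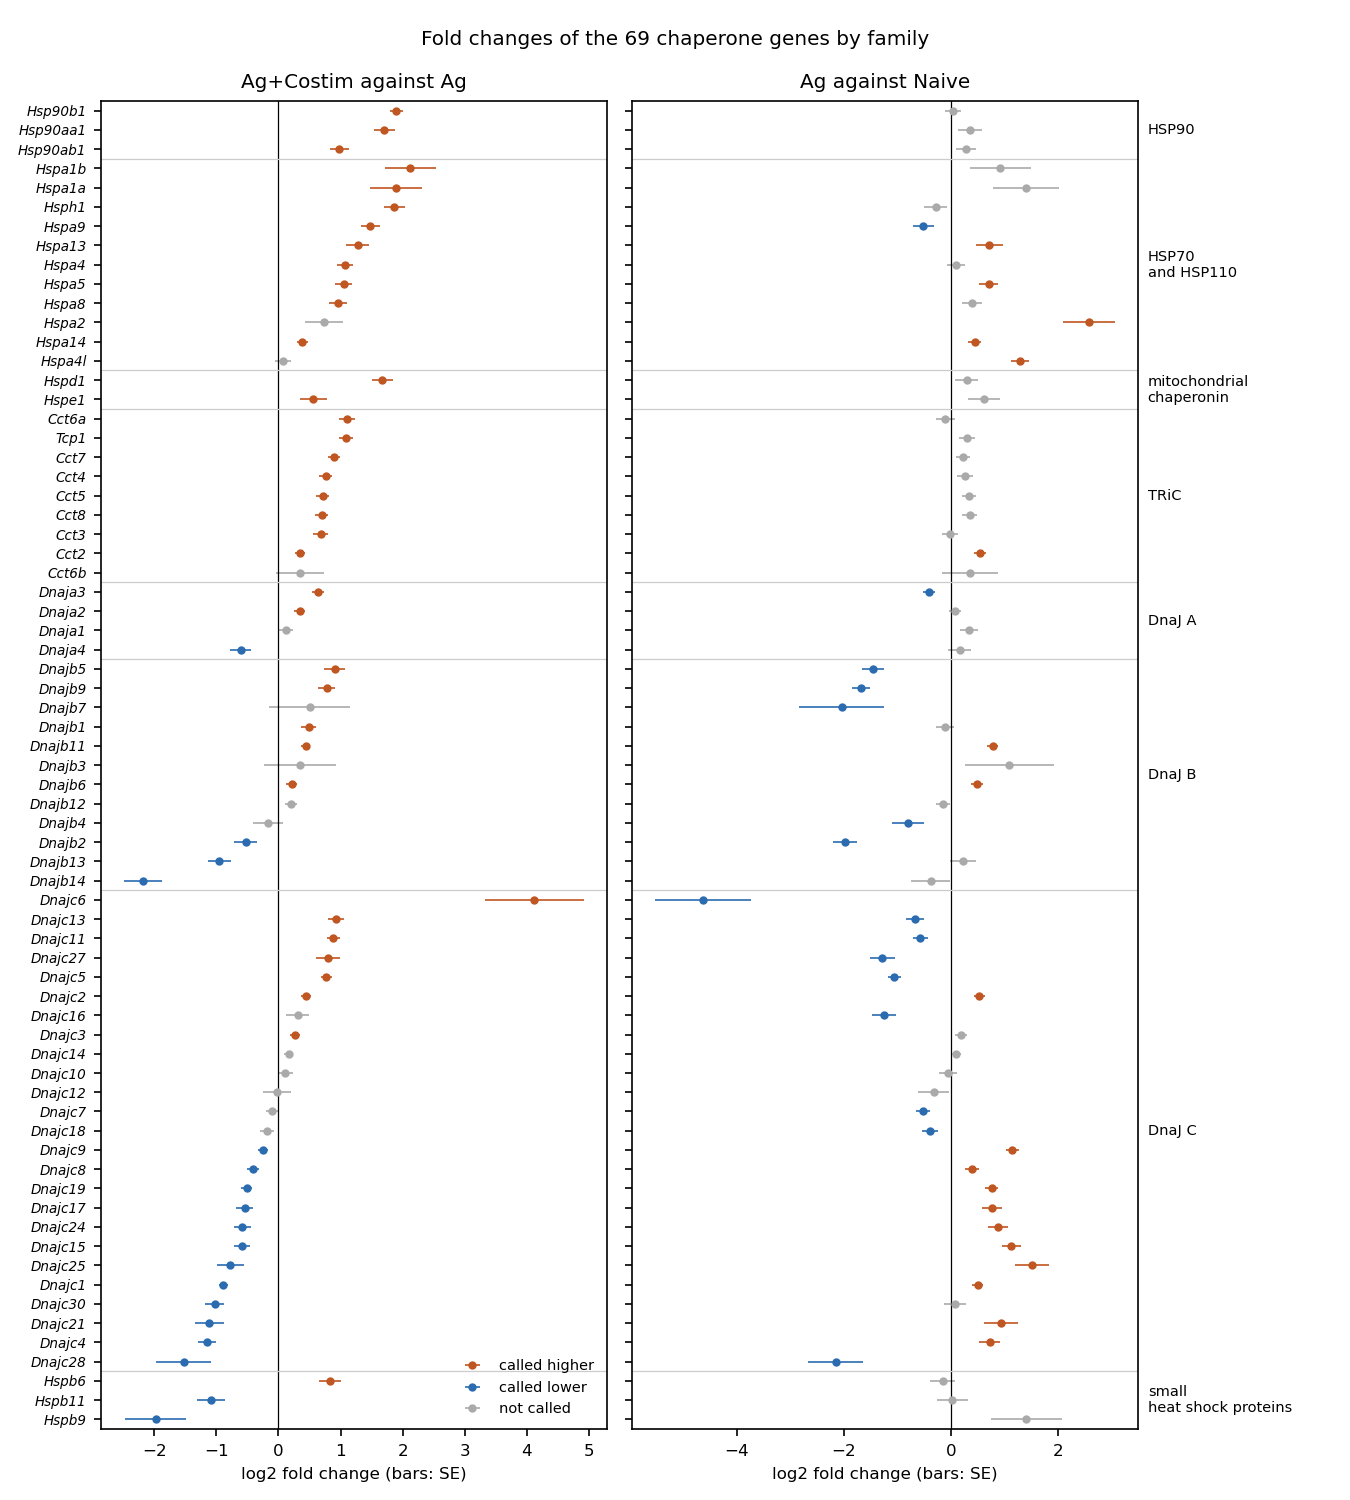
Log2 difference of each of the 69 members, with bars at the standard errors, grouped by family and coloured by call, for Ag+Costim against Ag and Ag against Naive. Points for HSP90, HSP70, HSP110, TRiC and the mitochondrial chaperonin lay at or above 0 for Ag+Costim against Ag, and those of the DnaJ classes lay on both sides. The outermost point, Dnajc6, rests on fewer than 3 counts in each Ag library.

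Genes that work with these chaperones but are not members gave the following counts for Ag+Costim against Ag, to be read against the 26.6% and 26.5% of all genes called higher and lower. Of 16 co-chaperones of HSP90, 11 were called higher and 1 lower, with Fkbp5 at 193 ± 55.9 CPM against 36.8 ± 10.3 (log2 2.40), Stip1, which hands clients from HSP70 to HSP90, at 466 ± 104 against 170 ± 9.69 (1.45), and Sugt1 lower (-0.29). Of 14 co-chaperones of HSP70, 4 were higher, or 28.6%, a share near that of all genes, and 2 lower, with Hyou1, the HSP110 of the ER, at 39.6 ± 11.4 against 4.96 ± 1.22 CPM (log2 3.00), and with the nucleotide exchange factor Bag1 and the ubiquitin ligase Stub1 lower (-0.43 and -0.49). Prefoldin and phosducin-like genes, which bring substrates to TRiC, had 2 of 9 higher, or 22.2%, also near that of all genes, and 4 lower, Pfdn5 at 63.8 ± 7.42 against 135 ± 16.4 CPM (-1.08). Of 16 other ER folding and stress genes, 14 were higher and 1 lower. The lectins Canx and Calr rose by 2.16 and 1.61 on the log2 scale and the sensor Atf6 by 1.65, Ddit3, a factor of terminal ER stress, fell from 41.3 ± 2.86 to 9.54 ± 2.71 CPM (-2.11), and Atf4 was not called (-0.07 ± 0.09, adjusted p = 0.503). Mitochondrial folding genes and proteases had 6 of 12 higher, with Clpb (1.43), Lonp1 (1.22) and the mitochondrial HSP90 Trap1 (1.06), and 2 lower, Hscb (-0.66) and Clpp (-0.43). Of the 4 heat shock factor genes tested, Hsf1, the main factor of the heat shock response, was at 84.4 ± 2.97 against 69.8 ± 6.29 CPM (log2 0.28 ± 0.08, adjusted p = 0.00824 by edgeR), Hsf2 and Hsf4 were higher from less than 1 CPM, and Hsbp1, which binds Hsf1, fell (-1.19).

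These co-chaperones also gave counts for Ag against Naive, to be read against the 24.2% and 22.5% of all genes called higher and lower. Of 16 HSP90 co-chaperones, 3 were called higher and 5 lower. ER folding genes had 9 of 16 higher and 4 lower, and prefoldin and phosducin-like genes had 7 of 9 higher and 1 lower. Hsf1 and Hsf2 were lower in Ag than in Naive, by 1.26 and 2.56 on the log2 scale.

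Isoforms were read from the splicing table and from transcript counts. The deposited splicing table gives, for Ag and Ag+Costim, the authors' pooled inclusion fraction (Psi) of each exon or part of an exon, with no value per library and no depth, so no test was possible. Of 692 such nodes in 62 members, 42, or 6.07%, shifted by more than 0.1, against 7.39% of 115403 nodes over all genes. HSP90 had 0 of 39, the mitochondrial chaperonin 0 of 12 and TRiC 1 of 119, in Cct6b. HSP70 and HSP110 had 3 of 125, DnaJ A 2 of 37, DnaJ B 11 of 89, DnaJ C 20 of 257 and the small heat shock proteins 5 of 14. The largest shift was between neighbouring transcription starts of Dnajc28, a scarce gene, where the node at chr16:91618758-91618994 had 0.911 in Ag and 0.129 in Ag+Costim. In Dnajc13, 7 nodes shifted to a higher fraction, among them the exon at chr9:104217712-104217768 (0.792 in Ag and 0.945 in Ag+Costim). An alternative first exon of Dnajb5 at chr4:42950396-42950742 had 0.715 and 0.3, and a retained intron of Dnajc27 at chr12:4107349-4107549 had 0.321 and 0.652. Counts of single transcripts, tested for a change of use between Ag and Ag+Costim with edgeR, gave calls for 4 of 57 members with more than 1 transcript, where 8.72% of genes were called. That test was unreliable when checked at this design, so no gene is named from it. In the added fit of transcript shares, 1 of 28 members was called, where 10.7% of genes were. That gene was Dnajc25, which also fell as a whole from 8.30 ± 1.71 to 4.85 ± 1.45 CPM. Its transcript Dnajc25-205, of the class broken down by nonsense-mediated decay, made up 56.4% ± 9.01 of the gene's counts in Ag and 15.0% ± 11.9 in Ag+Costim. Library ranges of these groups did not overlap, but the 2 Naive libraries lay far apart, at 18.3% and 56.0%. The call was lost with the replicate block.

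Transcript length also differed between members called higher and members called lower. The count-weighted transcript length had a median of 2532 bases over members called higher in Ag+Costim and 1787 over those called lower, and over all genes these medians were 3163 and 1768. The 14 uncalled members had the longest median of the members, at 2899 bases, where that of all uncalled genes was 2062. A fit corrected for length called 33 members higher and 19 lower, where 4826 and 5117 of all 18817 genes were. The part of length in the values above was not tested otherwise. Another annotated gene lies over 38 of the 69 members, and for 20 it is read from the same strand.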

How the data were processed

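Poly(A) RNA of sorted OT-I CD8+ T cells was read in 12 libraries, 5 of Ag, 5 of Ag+Costim and 2 of Naive, grouped by their labels. SMART-Seq v4 and Nextera XT were used, with single reads of 100 bases and no strand information. The submitters' processing notes name HISAT2 2.1.0, SAMtools 1.9, StringTie 2.1.0, DESeq2 1.30.1, R 4.0.5 and the build mm10. Gene and transcript counts were deposited by the authors as StringTie gave them, not normalized. FPKM values per transcript were also deposited by the authors and were summed here per gene. The authors' splicing table holds a Psi fraction per group and node, and its columns of their own comparison (a difference of Psi and a probability) were not used, nor were the run sheets. Entries with no annotated gene, 26345 of 81881 and 0.0508% to 0.121% of each library's counts, were left out of library sizes and tests.

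Counts of all 12 libraries were fitted with edgeR 4.0.16 (filterByExpr, TMM, quasi-likelihood test) in R 4.3.3, with calls at an adjusted p below 0.05 over 18817 genes. Alternatives used DESeq2 1.42.0, and limma 3.58.1 on log2(FPKM + 1) and log2(FPKM + 0.1), which understate the change of low genes. On simulated counts with 200 genes changed by 1 on the log2 scale between Ag and Ag+Costim, 83.5% were recovered among 18078 genes with 3 false calls. For transcript usage, 1 transcript of each of 200 genes was halved and another doubled in simulated Ag+Costim libraries. The planned transcript usage test recovered 5.5% of 200 in 9284 genes with 184 false calls, so a fit of transcript shares with limma was added after seeing the data. That fit recovered 5.82% of 189 in 5094 genes with 1 false call, and the voom test recovered 31.5% of 200 with 51 false calls. Values in every library are given for 30 core members and, per comparison, for the 5 largest rises and 5 largest falls among called members with a mean log2 CPM above 3. Members and gene lists were chosen with earlier results of these data known. Levels are means with standard deviations, differences carry standard errors, and a floor of 3 counts was 0.0609 to 0.125 CPM.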

Additional observations from a re-analysis of the deposited data

Results flagged for a closer look

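Of 88 groups of 5 libraries tested, 4 held a library whose gap to its nearest neighbour, over the range of the group, passed Dixon's 95% critical value, and chance gives about 1 in 20, or 4 here. Cct2 in Ag+Costim had library 4 at 250.9 CPM where the others lay between 297 and 311. Dnajc9 in Ag+Costim had library 2 at 360.2 CPM with the others between 392 and 403. Hspa4l in Ag had library 4 at 25.1 CPM with the others between 34.4 and 37.7. Dnajc2 in Ag had library 3 at 126 CPM, above the others at 115 to 117.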

How the results depend on the processing

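Of the 55 calls for Ag+Costim against Ag, 42 held in all settings run, and of 35 and 47 calls against Naive for Ag and Ag+Costim, 17 and 33 did. Leaving out 1 library at a time gave 52 to 55 calls for Ag+Costim against Ag (35 to 37 higher, 17 to 19 lower, median 0.37 to 0.45), 21 to 39 for Ag against Naive (12 to 23 higher, 9 to 16 lower, median 0.18 to 0.25), and 36 to 49 for Ag+Costim against Naive (28 to 36 higher, 7 to 14 lower, median 0.40 to 0.50). The median log2 difference for Ag+Costim against Ag was 0.19 under upper-quartile scaling, 0.46 after length correction, 0.27 on log2(FPKM + 1) and 0.31 on log2(FPKM + 0.1). For Ag against Naive it was 0.037 on both FPKM scales, and for Ag+Costim against Naive it was 0.29 under upper-quartile scaling and 0.19 and 0.20 on the FPKM scales. Length correction turned the sign, to -0.344 for Dnajc10, -0.295 for Dnajc14 and -0.226 for Dnajc3 in Ag+Costim against Ag, and to 0.0466 for Dnajc13, 0.171 for Dnajc18 and -0.0394 for Dnajc8 in Ag against Naive. On log2(FPKM + 1) and log2(FPKM + 0.1), Dnaja1 became -0.0380 and -0.0383 and Dnajc14 -0.0178 and -0.0182 in Ag+Costim against Naive. Members called for transcript usage, 4 of 57 as reported, were 13 of 57 with voom, where 20.9% of all genes were called. With 10 counts in 5 libraries 1 of 51 was called, where 5.72% of genes were. With shares 1 of 28 was called, where 10.7% of genes were. Shares with the replicate block gave 0 (5 at an unadjusted p under 0.05 by limma), where 4.75% of genes were called. Without 1 library 1 to 5 members were called, where 7.1% to 9.89% of genes were. The causes were not tested.

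Libraries of Ag and Ag+Costim share replicate numbers, but the deviations of same-numbered libraries correlated at -0.0447 to 0.297, with 2 of 5 matching best with their own number, so no pairing was taken. With the replicate block, 36 members were higher and 18 lower in Ag+Costim against Ag (median 0.44), where 4993 and 4743 of all 18817 genes were. In Ag against Naive 22 and 14 members were, with 4140 and 3775 of all genes. In Ag+Costim against Naive 32 and 14 members were, with 4799 and 4279 of all genes. Transcript usage with the block gave 3 members, where 6.8% of genes were called. With 2 Naive libraries, a lone one is assumed to vary as the other groups do when the other is left out. Members below about 1 CPM rest on few counts.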
